A study of Homo sapiens with 4 samples.

Results

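The AP-1 and EGR immediate early genes are a set of 10 transcription factor genes, FOS, FOSB, FOSL1, FOSL2, JUN, JUNB, JUND, EGR1, EGR2 and ATF3. They were taken by symbol from a table of 25283 genes, and all 10 were found there. The data are 4 RNA-seq libraries of cells labelled as neurons. They were made from the H1 line of human embryonic stem cells by way of neural progenitors, which were then matured with a commercial kit. The 2 control libraries are labelled wild type with an empty vector, and the 2 U1_OE libraries are labelled as overexpressing U1 snRNA, the RNA that recognises 5′ splice sites. Lentiviral vector had been given for 36 hours, and the treatment text names the overexpression vector for control samples as well, so the grouping rests on the titles and genotype labels. All cells thus share the H1 line and exposure to a vector. The labels do not say whether the libraries of a group are separate cultures, so p-values measure only the spread between these libraries, which may be technical.

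AP-1 is a dimer of basic leucine zipper proteins. JUN proteins pair with each other or with FOS proteins, whereas FOS proteins need a partner, and ATF3 joins the same network and often acts as a repressor. FOS, FOSB, JUN, JUNB, EGR1 and EGR2 are switched on within minutes of a stimulus through kinases that act on SRF, ternary complex factors and CREB, and their RNAs are short-lived. In neurons these genes serve as markers of recent activity, and in fibroblasts they respond to serum, growth factors and handling.

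The promoters of these genes are shown because the family is known for control through short response elements. RefSeq windows from 250 bases before to 50 after each start (GRCh38.p14) were at hand for 9 of the 10 genes, in 12 windows. The CArG box, to which SRF binds, was found in EGR1 and EGR2 and in 1.29% of 35116 such windows. The cAMP response element TGACGTCA was found in JUND (1.85% of windows). Its core TGACGT, which lies within the full element, was found in EGR1, EGR2, FOS, FOSB, FOSL2 and JUND (7.98% of windows). TGACATCA, the variant AP-1 site known from the JUN promoter, was found in JUN and ATF3 (2.61%), TGANTCA in FOSL2 (7.71%) and the EGR site GCGNGGGCG in EGR1 and EGR2 (9.43%). All motifs were searched on both strands, and a match is only a match of letters. Sequence outside these windows was not searched, so a gene without a match, such as FOS for the CArG box, may hold the element further away. In the stretches that follow, read 5′ to 3′ along the gene, capitals mark these matches.
EGR1, chr5:138465369-138465443, plus strand: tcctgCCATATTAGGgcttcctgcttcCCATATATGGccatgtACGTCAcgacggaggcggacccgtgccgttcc
EGR2, chr10:62816402-62816481, minus strand: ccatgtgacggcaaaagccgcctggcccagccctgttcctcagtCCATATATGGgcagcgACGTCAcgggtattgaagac
FOS, chr14:75278714-75278773, plus strand: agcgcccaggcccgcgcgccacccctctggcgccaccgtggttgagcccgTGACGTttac
FOSB, chr19:45467926-45467970, plus strand: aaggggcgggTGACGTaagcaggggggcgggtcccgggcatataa
JUND, chr19:18281798-18281832, minus strand: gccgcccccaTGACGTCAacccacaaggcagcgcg
JUN, chr1:58784093-58784122, minus strand: ccttggggTGACATCAtgggctatttttag
ATF3, chr1:212565267-212565316, plus strand: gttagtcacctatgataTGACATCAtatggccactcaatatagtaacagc
In EGR1 a pair of CArG boxes begins 105 and 83 bases before the start (positions -105 and -83), and in EGR2 a single box begins at -71. In both genes a reverse core TGACGT, printed as ACGTCA, follows within the same stretch. The FOS core begins at -64 and that of FOSB at -60. GENCODE v29 places the start of JUN further upstream, so the JUN stretch lies within its annotated exon.

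Estimated counts summed to 16713505 to 19057423 per library. The labelled cell type was checked against marker genes. These did not bear out a mainly neuronal culture, since mesenchymal markers summed far above neuronal ones in each library. The neuronal markers ELAVL3 and ELAVL4 were not among the genes measured. Of the 7 neuronal markers measured, RBFOX3, STMN2 and DCX were under 0.5 CPM (counts scaled to the TMM-corrected library size) in each library. The other 4 reached 1 CPM in each library, among them SNAP25 (5.53 to 8.18 CPM) and MAP2 (2.64 to 6.60 CPM). Neuronal markers, 7 of 9 measured, summed to 118 to 179.8 CPM in control and 282 to 357 CPM in U1_OE libraries, most of it TUBB3, which DESeq2 called higher (adjusted p = 0.00134) and edgeR did not (adjusted p = 0.459). All 10 mesenchymal markers reached 1 CPM in each library and summed to 76750 to 87870 CPM in control and 84540 to 92630 CPM in U1_OE libraries. Microglia and blood markers, 3 of 5 measured, summed to 0.474 to 0.815 and 1.53 to 2.56 CPM. Progenitor markers (4 of 5 measured) summed to 45.0 to 47.5 and 49.3 to 57.8 CPM, astrocyte markers (4 of 5) to 8.36 to 19.6 and 22.5 to 26.6 CPM, and endothelial markers (5 of 5) to 28.2 to 35.1 and 42.4 to 76.8 CPM. The part of these differences in the values that follow was not tested. In such bulk RNA, fewer cells of a type and less RNA per cell cannot be told apart.

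JUND, JUNB and JUN had the highest levels of the 10 genes in each library, and FOSB had the lowest. Levels of different genes are compared as CPM per kilobase of merged exons. JUND came first in each library, at 72.0 to 138.7 CPM per kb, and its lowest library lay above the highest of JUNB, at 40.6 to 59.5 CPM per kb. JUNB and JUN, at 34.3 to 44.7 CPM per kb, overlapped. FOSL1 (2.48 to 13.7 CPM per kb), FOSL2 (6.08 to 6.86) and EGR1 (2.74 to 14.6) formed a second tier whose ranges overlapped, and ATF3 (0.520 to 4.83) overlapped with FOSL1 and EGR1. EGR2 (0.227 to 1.37 CPM per kb) and FOS (0.387 to 1.17) could not be ordered. FOSB was last in each library, at 0.0518 to 0.198 CPM per kb. Summed over the family, JUN genes exceeded FOS genes 11.3-fold and 17.5-fold in the control libraries and 18.4-fold and 8.18-fold in the U1_OE libraries.

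**Figure D1:**
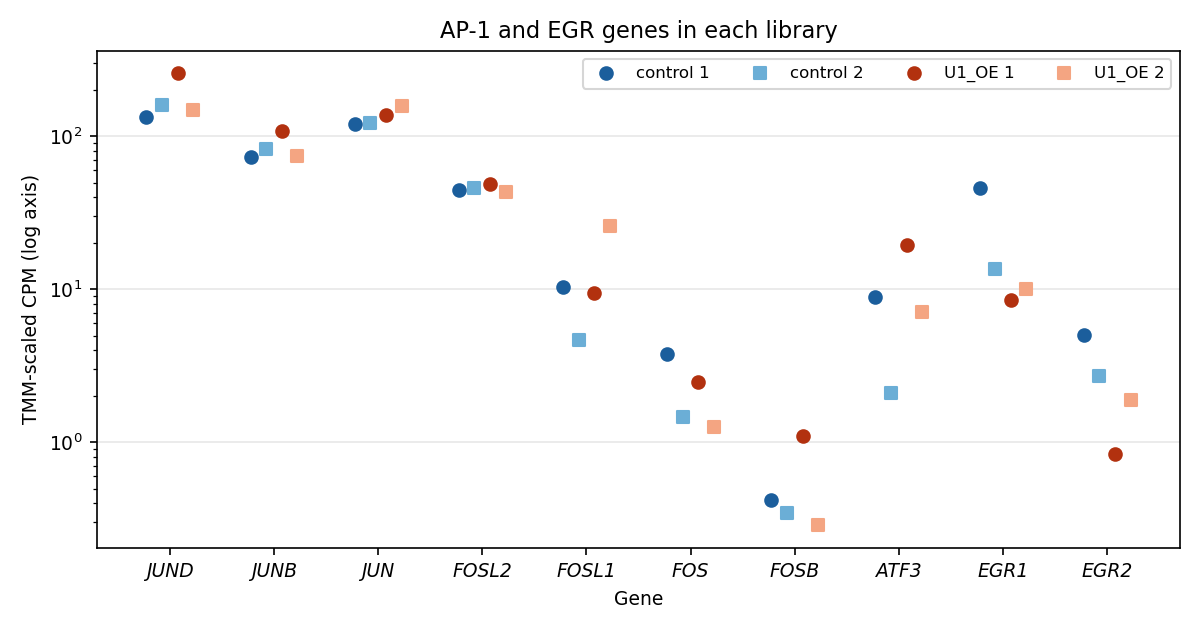
TMM-scaled CPM (log axis) of the 10 genes, with a point for each library (control blue, U1_OE red, circle for replicate 1 and square for replicate 2). JUN and FOSL2 sit close together across libraries, JUND spans 134 to 258 CPM, ATF3 spans 2.10 to 19.5 CPM and EGR1 8.58 to 45.9 CPM.

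None of the 10 genes was called different between U1_OE and control. With the quasi-likelihood test of edgeR and p-values adjusted (Benjamini-Hochberg) over all 17317 genes tested, 0 of the 9 genes that passed the filter on low counts had an adjusted p under 0.05, against 0% of all genes. FOSB did not pass that filter. An unadjusted p under 0.05 was found for 1 gene, EGR1, against 9.08% of all genes tested. DESeq2 called 0 of the 10 (1.08% of all genes with an adjusted p), edgeR's likelihood ratio test called 0 of 9 (1.88% of all genes tested), and limma-voom called 0 of 9 (0% of all genes). Control and U1_OE libraries did not overlap for 3 of the 9 genes, JUN, EGR1 and EGR2, against 41.7% of all genes tested. Of these, 1 was higher in U1_OE (19.7% of all genes) and 2 were lower (22.1% of all genes). The log2 fold change was positive for 6 genes and negative for 3, with a median of 0.22, beside -0.01 over all genes. This median became -0.05 without U1_OE replicate 1.

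The JUN genes have no intron in the longest transcript that the annotation marks as principal. JUN (ENSG00000177606, chromosome 1, 58780788 to 58784327, minus strand), the first member found and a strong activator, had 121 and 123 CPM in control and 138 and 158 CPM in U1_OE libraries. Both U1_OE libraries were above both controls, by a small margin. Its log2 fold change was 0.28 ± 0.14 (SE; edgeR adjusted p = 0.613). JUND (chromosome 19, 18279760 to 18281622, minus strand), the member that resting cells keep at a high level, had 134 and 160.3 CPM in control and 258 and 149 CPM in U1_OE libraries. U1_OE replicate 1 alone stood high, and replicate 2 lay between the controls. The log2 fold change of JUND was 0.47 ± 0.29 (edgeR adjusted p = 0.687). By edgeR it was 0.03 without U1_OE replicate 1 and 0.81 without U1_OE replicate 2.

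JUNB (chromosome 19, 12791496 to 12793315, plus strand), which often restrains JUN, followed the shape of JUND at a lower level. It had 73.9 and 82.5 CPM in control and 108 and 74.5 CPM in U1_OE libraries, and the groups overlapped. Its log2 fold change was 0.22 ± 0.22 (edgeR adjusted p = 0.791) and turned to -0.06 without U1_OE replicate 1. JUNB lies within the annotated span of HOOK2 on the opposite strand, with 259 bases of shared exon. No strand-marking step is stated, so reads there cannot be told apart. HOOK2 had 20.5 and 23.5 CPM in control and 33.7 and 29.5 CPM in U1_OE libraries. Within the JUN family, JUND took 49.0% and 51.8% of the CPM per kb in control and 58.5% and 48.3% in U1_OE libraries, and JUNB 24.7% to 27.7% in all 4. JUN took 23.3% and 20.9% in control and 16.5% and 27.0% in U1_OE libraries.

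Among the FOS genes the 2 FOS-related antigens FOSL1 and FOSL2 carried most of the RNA. FOSL2 (chromosome 2, 28392448 to 28417312, plus strand), a partner of JUN proteins in bone and connective tissue, was the steadiest of the 10 genes. It had 44.5 and 46.4 CPM in control and 49.1 and 43.5 CPM in U1_OE libraries, so the control values lay between those of U1_OE. Its log2 fold change was 0.03 ± 0.13 (edgeR adjusted p = 0.974) and was -0.01 when scaled by library size alone. The antisense gene FOSL2-AS1 shares no exon base with it and had 0.114 to 1.35 CPM.

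FOSL1 (chromosome 11, 65892049 to 65900573, minus strand), whose transcription is sustained by prolonged ERK signalling, varied most within the FOS family, with 5.53-fold between its highest and lowest library. It had 10.4 and 4.68 CPM in control and 9.52 and 25.9 CPM in U1_OE libraries. U1_OE replicate 2 stood above the rest and control replicate 2 below, and U1_OE replicate 1 lay between the controls. The log2 fold change was 1.23 ± 0.61 (edgeR adjusted p = 0.618), and it ranged from 0.34 without U1_OE replicate 2 to 1.94 without control replicate 1. FOSL1 supplied 67.8% of the FOS family's CPM per kb in U1_OE replicate 2, against 39.2% in replicate 1 and 42.6% and 26.2% in the controls. FOSL2 supplied 47.8% and 68.4% in the control and 53.3% and 30.0% in the U1_OE libraries.

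**Figure D2:**
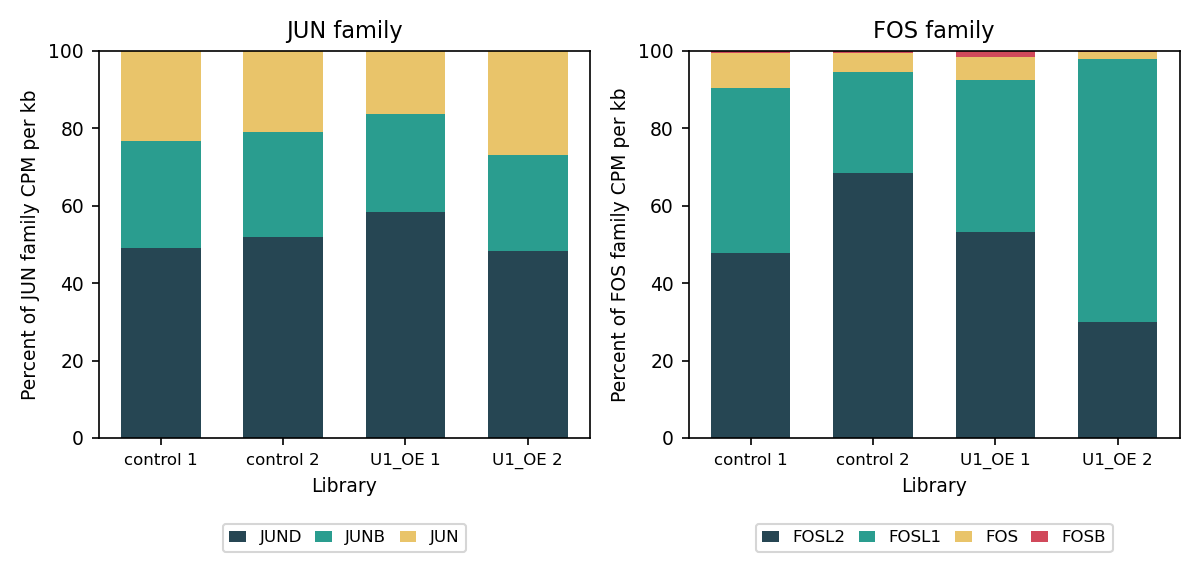
Share of each gene in its family's summed CPM per kb, as stacked bars for each library. In the JUN family JUND is the largest share in each library and JUN goes from 16.5% to 27.0% between the U1_OE libraries, and in the FOS family FOSL1 goes from 26.2% in control replicate 2 to 67.8% in U1_OE replicate 2.

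FOS (chromosome 14, 75278774 to 75282230, plus strand), the prototype immediate early gene, rested on few reads, 64.6 and 26.6 estimated counts in the control and 40.1 and 23.9 in the U1_OE libraries. These were 3.80 and 1.47 CPM in control and 2.47 and 1.25 CPM in U1_OE libraries. In each group replicate 1 was above replicate 2. Exact Poisson intervals (95%) of the rounded estimated counts cover counting error only, not error in the estimates themselves. They were 2.95 to 4.88 and 0.984 to 2.17 CPM in the controls and did not overlap. For FOS the log2 fold change was -0.52 ± 0.64 (edgeR adjusted p = 0.851) and became 0.34 without control replicate 1.

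FOSB (chromosome 19, 45467995 to 45475179, plus strand), which gives the long-lived deltaFosB protein in stimulated neurons, had 7.10 and 6.28 estimated counts in control and 17.9 and 5.49 in U1_OE libraries. Its Poisson intervals were 0.166 to 0.849 and 0.122 to 0.722 CPM in the controls and 0.657 to 1.75 and 0.0851 to 0.612 CPM in the U1_OE libraries. The intervals of the 2 U1_OE libraries did not overlap, and those of the 2 controls did. FOSB lies within the annotated span of ERCC1 on the opposite strand, with no shared exon base. ERCC1 had 84.5 to 151 CPM. No strand-marking step is stated, so unspliced ERCC1 reads there cannot be told apart from FOSB reads. Of the FOS family's CPM per kb, FOS and FOSB supplied 9.04% and 0.579% in control replicate 1 and 1.91% and 0.256% in U1_OE replicate 2.

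ATF3 (chromosome 1, 212565334 to 212620777, plus strand), a stress-induced member of the same network, had the widest spread, with 9.29-fold between its highest and lowest library. It had 8.96 and 2.10 CPM in control and 19.5 and 7.11 CPM in U1_OE libraries. In both groups replicate 1 was higher, 4.27-fold in control and 2.74-fold in U1_OE, and U1_OE replicate 2 lay between the controls. The log2 fold change was 1.27 ± 0.80 (edgeR adjusted p = 0.690), and it ranged from 0.38 without U1_OE replicate 1 to 2.68 without control replicate 1. With the replicate number as a block it was 1.42.

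The EGR genes encode zinc finger proteins that bind GC-rich sites, and both were lower in each U1_OE library than in each control library. EGR1 (ENSG00000120738, chromosome 5, 138465490 to 138469315, plus strand), induced by growth factors, mechanical stress and neuronal activity, had 45.9 and 13.7 CPM in control and 8.58 and 10.1 CPM in U1_OE libraries. Control replicate 1 stood far above the other 3, and control replicate 2 was close to the U1_OE libraries. The group means were 29.8 ± 22.8 and 9.33 ± 1.06 CPM (SD, n = 2 libraries each). EGR1 had a log2 fold change of -1.68 ± 0.59 (SE; edgeR adjusted p = 0.523; DESeq2 adjusted p = 0.123). By edgeR the log2 fold change was -0.54 without control replicate 1. Without control replicate 2 it was -2.30.

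EGR2 (chromosome 10, minus strand), known from hindbrain patterning, myelinating Schwann cells and connective tissue, had 5.06 and 2.72 CPM in control and 0.837 and 1.90 CPM in U1_OE libraries. Control replicate 1 was again the highest and U1_OE replicate 1 the lowest, as for EGR1. The Poisson intervals of the nearest pair, control replicate 2 and U1_OE replicate 2, were 2.00 to 3.58 and 1.32 to 2.61 CPM and overlapped. The log2 fold change was -1.49 ± 0.57 (edgeR adjusted p = 0.550), and it was -0.95 without control replicate 1 and -2.16 without U1_OE replicate 2. Per kilobase, EGR1 exceeded EGR2 10.7-fold and 5.92-fold in the control and 12.1-fold and 6.25-fold in the U1_OE libraries. In this ratio each library resembled the same-numbered library of the other group more than its own replicate. The ratio in U1_OE replicate 1 rests on 13.6 estimated counts of EGR2.

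**Figure D3:**
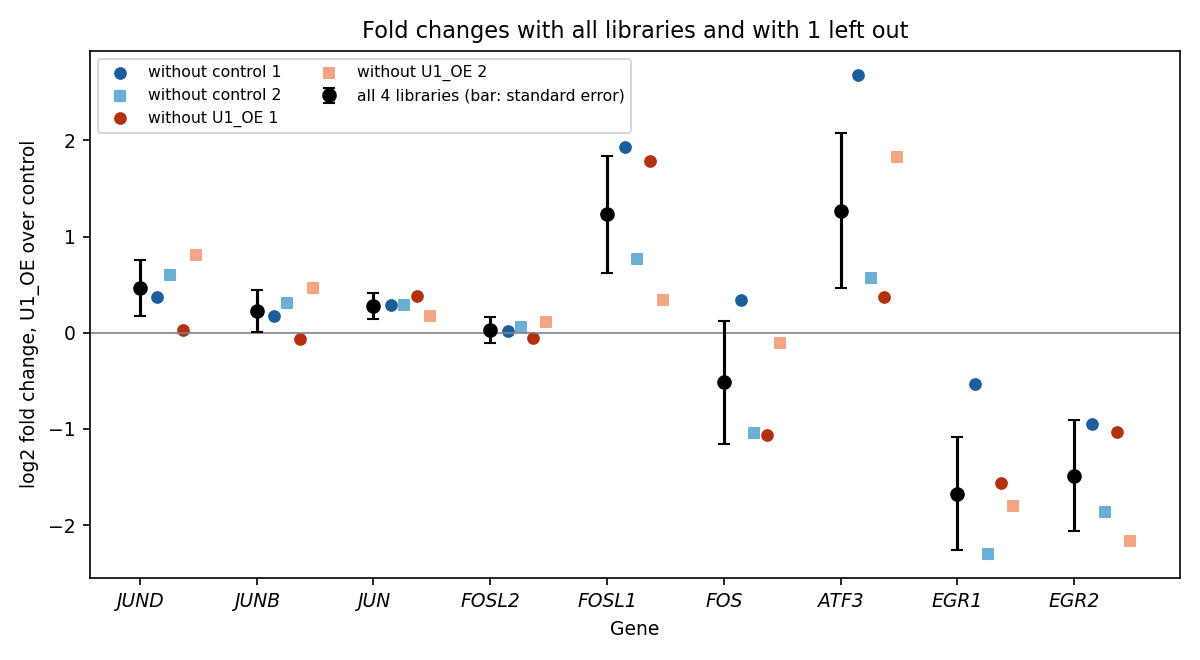
Log2 fold change of U1_OE over control by edgeR for the 9 tested genes, in black with all 4 libraries (bars are standard errors) and in colour with 1 library left out. EGR1 goes from -1.68 to -0.54 without control replicate 1, and ATF3 from 1.27 to 2.68.

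By the median, differences between libraries of the same group were larger for these genes than over all genes, though not for each gene. On the scale of log2(CPM + 0.5), the median absolute difference between the 2 control libraries was 0.79 over the 9 tested genes and 0.22 over all genes tested, and between the 2 U1_OE libraries 0.76 and 0.30. The difference between group means had a median of 0.47 and 0.23. It exceeded both within-group differences for JUN and EGR2 (22.2% of the 9 genes, against 29.1% of all genes). FOSL2, JUN and JUNB, with 0.06, 0.02 and 0.16 between controls, lay above only 15.3%, 5.64% and 37.7% of all tested genes, and FOSL2, JUN and EGR1 above 31.1%, 35.0% and 39.0% in the difference between U1_OE libraries. ATF3 and EGR1, with 1.87 and 1.71 between controls, lay above 98.7% and 98.2%. These medians describe the set and were not tested.

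**Figure D4:**
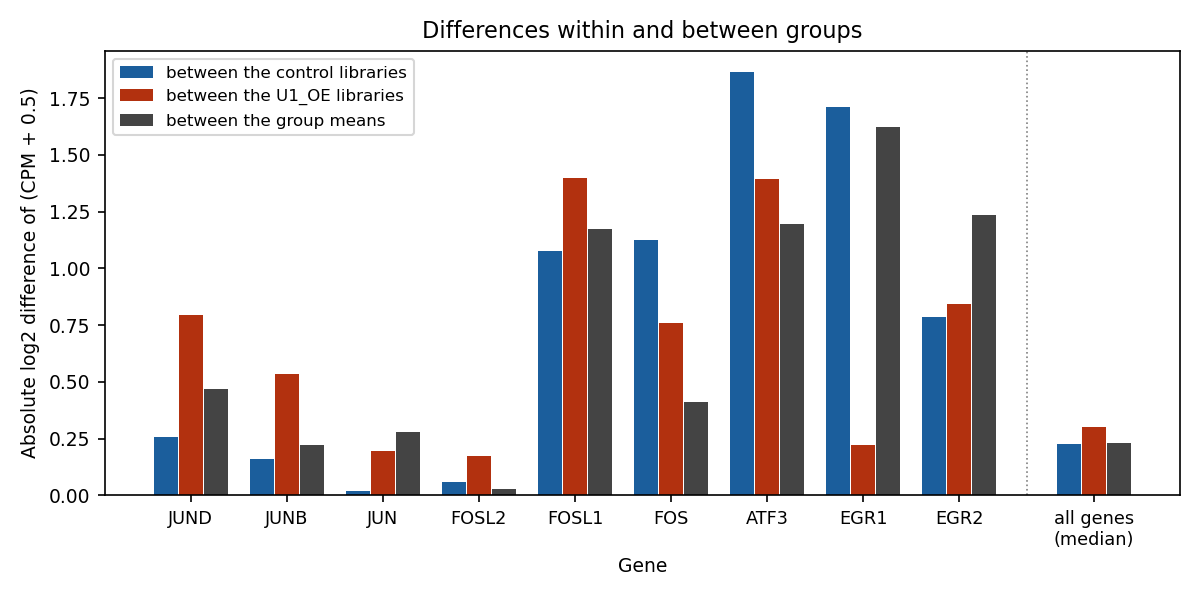
Absolute log2 difference of (CPM + 0.5) for the 9 tested genes, between the control libraries (blue), between the U1_OE libraries (red) and between the group means (grey), with the median over all genes at the right. For ATF3 both within-group bars (1.87 and 1.39) exceed the bar between groups (1.20).

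Other immediate early genes, such as growth-factor-induced and activity-induced regulators, had no common direction. Of 32 listed, 26 were tested. By edgeR 0 were called and 4 had an unadjusted p under 0.05, all lower in U1_OE (4.72% of all genes tested). DESeq2 called 0. A positive log2 fold change was found for 16 and a negative one for 10, and the median was 0.11. KLF10, a TGF-beta-induced factor, had 42.6 and 54.1 CPM in control and 26.4 and 29.1 CPM in U1_OE libraries (log2 fold change -0.80 ± 0.17, edgeR adjusted p = 0.459). SGK1, a serum- and glucocorticoid-regulated kinase, had 161 and 226 CPM in control and 113 and 119 CPM in U1_OE libraries (-0.74 ± 0.20). PTGS2, the inducible cyclooxygenase, had 14.9 and 8.21 CPM in control and 4.54 and 6.22 CPM in U1_OE libraries (-1.10 ± 0.37). These 3 genes, named for the smallest edgeR p of the list, were lower in both U1_OE libraries than in both controls, without a call. The groups did not overlap for 9 of the 26 tested genes, 4 higher in U1_OE (19.7% of all genes) and 5 lower (22.1% of all genes). ARC, NR4A2 and NR4A3 (chosen after their values were seen) were the measured genes of the list that were not tested. They stayed under 0.5 CPM in each library, whereas the median of the 29 measured genes was 25.7 to 38.5 CPM. Of the 26 tested genes, 12 had their lowest level in control replicate 2 (46.2%, against 23.0% of all genes) and 1 in control replicate 1 (3.85%, against 22.3%). U1_OE replicate 1 was lowest for 8 (30.8%, against 29.9%) and U1_OE replicate 2 for 5 (19.2%, against 24.7%).

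Upstream regulators and feedback inhibitors showed no call by edgeR or DESeq2. Of 22 SRF cofactors and MAP kinases, 14 had a positive log2 fold change, and the median was 0.06. Against 9.08% of all genes tested, 1 of the 22 had an unadjusted edgeR p under 0.05. This was MAPK8, the JUN kinase JNK1, with 19.6 and 19.9 CPM in control and 28.4 and 24.8 CPM in U1_OE libraries (0.43 ± 0.15, edgeR adjusted p = 0.528). MAP2K1, the kinase above ERK, and ELK3, a ternary complex factor, had 0.34 ± 0.17 and 0.36 ± 0.18. Of 17 feedback inhibitors, which dampen MAP kinase or EGR activity, 10 were positive, with a median of 0.11. An unadjusted edgeR p under 0.05 was found for 0 of the 17, against 9.08% of all genes tested. The phosphatase genes DUSP16 and DUSP10 had 0.71 ± 0.29 and -0.59 ± 0.29, and SPRY4, an inhibitor of receptor signalling, 0.31 ± 0.15. Among the other basic leucine zipper genes, 16 of 18 were tested, 9 had a negative log2 fold change, and the median was -0.12. Against 9.08% of all genes tested, 2 of the 16 had an unadjusted edgeR p under 0.05. These were MAFG, a small MAF protein, with -0.41 ± 0.15, and DDIT3, a stress-induced factor, with -0.60 ± 0.22, and NFE2L1, a proteasome regulator, had -0.29 ± 0.13.

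Genes known from textbooks as AP-1 targets went in both directions. Of 20 listed, 18 were tested, 11 had a positive and 7 a negative log2 fold change, and the median was 0.35. By edgeR 0 were called, 5 higher and 2 lower had an unadjusted p under 0.05 (4.36% and 4.72% of all genes tested), and DESeq2 called 1 (1.08% of all genes). That gene was PLAUR, the urokinase receptor, with 150.4 and 137 CPM in control and 205 and 299 CPM in U1_OE libraries (edgeR log2 fold change 0.81 ± 0.22, adjusted p = 0.462; DESeq2 adjusted p = 0.0448). DESeq2 kept this call without U1_OE replicate 1 (0.000373) and lost it when U1_OE replicate 2 (0.430) or either control library was left out (0.535 without replicate 1, 1.00 without replicate 2) and with the replicate block (0.384). Its DESeq2 log2 fold change in these fits was 0.52 without U1_OE replicate 2, 0.90 and 0.75 without the first and second control, and 0.80 with the block. IL11, a cytokine of fibroblasts, and HMOX1, the heme-degrading enzyme, had 1.27 ± 0.31 and -0.62 ± 0.17 by edgeR.

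Of 12 listed late genes of neuronal activity, 7 were tested and 0 were called by edgeR or DESeq2. BDNF, a neurotrophin, had 4.07 and 2.22 CPM in control and 6.49 and 7.43 CPM in U1_OE libraries (1.15 ± 0.37, edgeR adjusted p = 0.507). Of the 7 tested, BDNF alone had an unadjusted edgeR p under 0.05, against 9.08% of all genes tested. PER1, a clock gene, and NPTX1, a synaptic pentraxin, had -0.60 ± 0.39 and -1.13 ± 0.73. All 8 inducible heat shock genes were higher in the mean of U1_OE, with a median log2 fold change of 0.35. Over all genes tested, 8542 of 17317 had a positive log2 fold change. Control replicate 2 was the lowest library for 6 of the 8 heat shock genes (75.0%, against 23.0% of all genes). By edgeR 0 of the 8 were called, 2 had an unadjusted p under 0.05, both higher in U1_OE (4.36% of all genes tested), and DESeq2 called 0. The cochaperones HSPH1 and DNAJB1 had 0.40 ± 0.14 and 0.34 ± 0.13 and HSPA1A, the inducible HSP70, 0.46 ± 0.21.

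**Figure D5:**
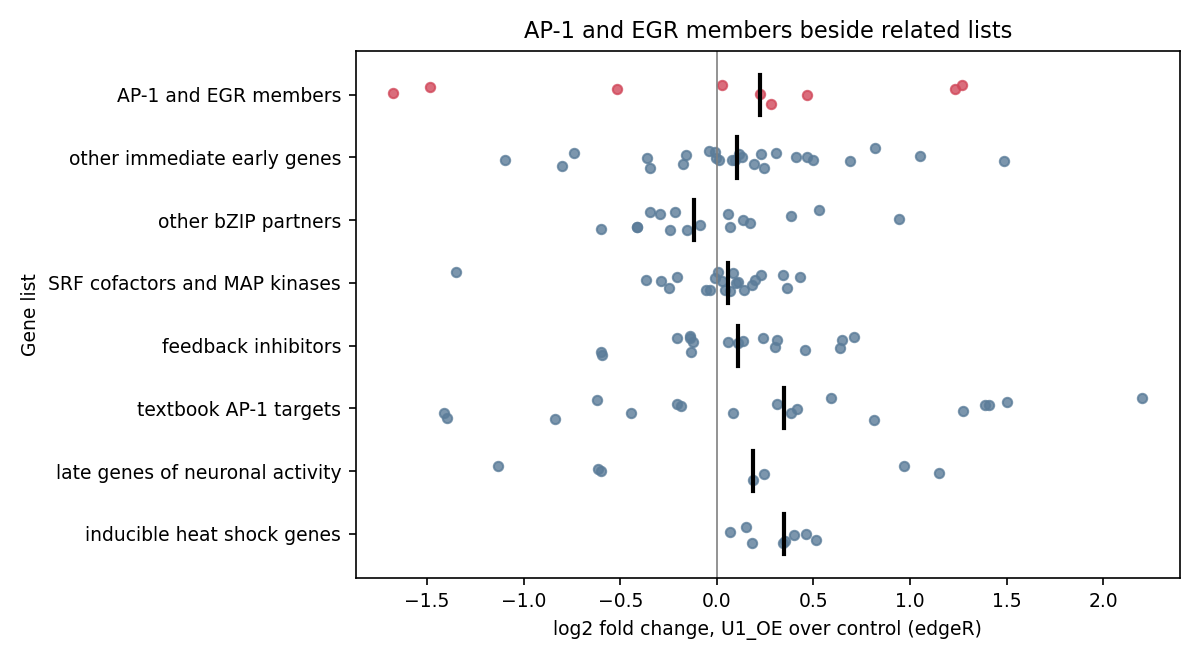
Log2 fold change of U1_OE over control by edgeR for each tested gene (points, with random vertical scatter) of the AP-1 and EGR set (red) and of 7 related lists (blue), with black bars at the medians. The red points run from -1.68 to 1.27, with a median of 0.22 beside 0.11 for the other immediate early genes.

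The genes whose pattern over the 4 libraries lay closest to that of FOS were PCDHGB7, SYT15-AS1, CIART, SERPINA3 and CCDC180. Their centred log2(CPM + 0.5) profiles differed from that of FOS by a root mean square of 0.05 to 0.13, among the 12260 genes averaging 50 counts or more. No other AP-1 or EGR gene was near. FOSL2 would have ranked 3562, EGR1 9887, EGR2 10872, ATF3 11724 and FOSL1 12001. With 4 libraries and few FOS reads, this order describes these libraries only.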

How the data were processed

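RNA-seq was analysed in 2 control and 2 U1_OE libraries, grouped and numbered by sample title. The authors deposited estimated counts per gene, not normalised, and the submitters' processing notes name Trim Galore, STAR, featureCounts, DESeq2 and hg38, with no versions or roles. Only 1.99% of values above 0 lie within 0.01 of a whole number, and no source used here states where the fractions come from. After rounding, edgeR 4.0.16 (R 4.3.3) was used with filterByExpr (17317 genes), TMM factors, the quasi-likelihood test and a threshold of 0.05. Standard errors were worked back from the F statistic. CPM use the unrounded values. DESeq2 1.42.0, run on all rows above 0 with its own filter, and limma-voom 3.58.1 were alternatives. Exon lengths, spans and overlaps come from GENCODE v29 (GRCh38), and promoters from RefSeq. An exact permutation test of 2 against 2 libraries cannot go below p = 0.333 and was not run. On simulated data of this design the fitted fold changes were recovered, but the quasi-likelihood test called few of the genes made to differ 2-fold. DESeq2 and the likelihood ratio test made more false calls there than the threshold allows. The simulated means and dispersions were estimated from these same libraries, so the outcome holds for that spread only.

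The members and lists were chosen with earlier results of these data known. The naming rule took all members, the 3 tested genes of each related list with the smallest edgeR p, and the 5 genes closest to FOS.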

Additional observations from a re-analysis of the deposited data

How the results depend on the processing

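No member was called with RLE factors, with scaling by library size only, without a filter, among genes averaging 50 counts or more (7 members tested), with limma-voom, unrounded counts or the likelihood ratio test, or in any edgeR fit with a library left out. Over all genes DESeq2 called 189 and the likelihood ratio test 325, and DESeq2 with a library left out called 55 and 63 (without the first and second control) and 145 and 322 (without the first and second U1_OE library; these fits were added after the data were seen), among them 0 to 1 members, EGR1 without control replicate 2 and JUND without U1_OE replicate 2. The members' median log2 fold change was -0.054 to 0.29 by edgeR and -0.039 to 0.31 by DESeq2 with a library left out. Without U1_OE replicate 1, FOSL2 was -0.054 by edgeR and -0.035 by DESeq2, JUNB -0.061 and -0.042, and FOSB -0.48 by DESeq2. With each library left out in turn, edgeR gave -0.054 to 0.111 for FOSL2, -0.061 to 0.47 for JUNB and -1.07 to 0.34 for FOS. A lone library is there assumed to vary like the other group. Without control replicate 1, FOS was 0.34 by edgeR and 0.33 by DESeq2. With library size alone FOSL2 was -0.010. The cause of these turns was not tested.

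No link between same-numbered libraries is stated beyond the number. Their deviations correlated at -0.08 across 17317 genes, which cannot show whether they were paired. With the replicate block edgeR called 0 genes, with a members' median of 0.20, and DESeq2 called 80, none of them a member. FOSB, FOS and EGR2 had 5.49 to 86.0 estimated counts per library, and each group has 2 libraries.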

Other observations

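The profiles of EGR1, FOSL1 and ATF3, chosen after their values were seen, were set against all genes by the measure used for FOS. Closest to EGR1 was ITGB4, an integrin of epithelial hemidesmosomes, with 9.57 and 1.64 CPM in control and 1.09 and 1.45 CPM in U1_OE libraries. SLC7A11, the cystine transporter, ranked 4 for EGR1. Closest to FOSL1 was SMAGP, a small membrane protein gene, with 11.3 and 4.57 CPM in control and 11.7 and 28.3 CPM in U1_OE libraries. MAFF, a small MAF gene of the immediate early list, ranked 5 for FOSL1, with 4.35 and 2.66 CPM in control and 5.09 and 14.5 CPM in U1_OE libraries. Among the genes closest to ATF3 was SERPINE2, a protease inhibitor, with 258 and 139 CPM in control and 776 and 373 CPM in U1_OE libraries. These are descriptions of 4 libraries, with no test.

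The members differ in gene structure. Their annotated spans run from 1820 to 107905 bases with a median of 5506 bases, against 32497 bases over 13590 tested genes with a span. The 3 JUN genes have no intron, EGR1 and EGR2 have 1, and FOS, FOSB, FOSL1, FOSL2 and ATF3 have 3. Introns were counted in the longest transcript that the annotation marks as principal.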
